A study of Rattus norvegicus with 6 samples.

Results

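The mitochondrial enzymes of fatty acid oxidation were followed here as 10 genes: the carnitine shuttle genes Cpt1a, Slc25a20 and Cpt2, the acyl-CoA dehydrogenase genes Acadvl, Acadl, Acadm and Acads, and the hydroxyacyl-CoA dehydrogenase and trifunctional protein genes Hadha, Hadhb and Hadh. All probe sets annotated to these genes were taken, 14 of the 31042 compared. They were measured in the rat insulinoma β-cell line 832/13 INS-1, a clonal line derived from INS-1 cells, on 3 arrays after electroporation with COUP-TFII siRNA and 3 arrays after scrambled siRNA (control cells). All cells were cultured for 48 h, in a medium whose label gives 11 mM glucose, and were used between passages 7 and 25. The groups carry no other treatment or allele, and the labels number the arrays of each group 1 to 3 as biological replicates. The pathway was selected on measured values of the same siRNA comparison, since Acadm was already known to have the lowest p among fatty acid oxidation genes. The siRNA values below are therefore a description of the members. Counts of members called in that comparison stand beside the share over all probe sets and are no independent test of any member. The replicate numbers also stood in the rule for these genes, and how far differences between them had been seen is not known.

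Long-chain fatty acids cross the inner mitochondrial membrane as carnitine esters. Carnitine palmitoyltransferase 1 makes the ester at the outer membrane and is inhibited by malonyl-CoA, the product of acetyl-CoA carboxylase, a translocase carries the ester across, and carnitine palmitoyltransferase 2 returns it to acyl-CoA. In the matrix, dehydrogenases of decreasing chain length open each round of β-oxidation and pass electrons to the electron transfer flavoprotein. Hydration, a further dehydrogenation and thiolysis follow, on the trifunctional protein for long chains and on separate enzymes for short ones. In β-cells, glucose metabolism raises malonyl-CoA and restrains this oxidation, and short-chain 3-hydroxyacyl-CoA dehydrogenase (Hadh) is known as a restraint on insulin secretion, its loss being a cause of congenital hyperinsulinism. COUP-TFs are nuclear receptors that bind repeats of the half-site AGGTCA, the element also read by PPARs, HNF4α and the estrogen-related receptors, and the Acadm promoter is a classic site where such receptors were studied.

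Promoter windows from RefSeq (assembly GRCr8) were found for 9 of the 10 genes, all but Acadl. Each runs from 250 bases before to 50 after the start used for that window, and motif positions are counted from it. This start is the first annotated base of the gene for Acadm, Slc25a20, Hadha and Hadh. It is another base for Cpt1a, Cpt2, Acadvl, Acads and Hadhb. The Cpt1a window, from 209995910 to 209996209, lies inside the gene, which begins at 209993881. Windows are shown for Acadm, the member with separate siRNA groups, and for Slc25a20, a member that differed between replicate numbers. Hadha is shown because part of its window is shared with a neighbouring member. Capitals mark, on either strand, the half-site AGGTCA, the GC box letters GGGCGG and the letters of the CCAAT box. The windows lie at chr2:245542815-245543114 on the minus strand (Acadm), chr8:118243323-118243622 on the plus strand (Slc25a20) and chr6:31907551-31907850 on the plus strand (Hadha).
Acadm: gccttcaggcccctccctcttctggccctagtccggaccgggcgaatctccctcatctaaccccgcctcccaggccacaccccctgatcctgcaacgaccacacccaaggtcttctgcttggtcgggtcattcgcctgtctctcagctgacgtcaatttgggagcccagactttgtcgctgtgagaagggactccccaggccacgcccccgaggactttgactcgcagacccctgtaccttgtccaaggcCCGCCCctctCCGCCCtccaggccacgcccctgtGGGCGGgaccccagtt
Slc25a20: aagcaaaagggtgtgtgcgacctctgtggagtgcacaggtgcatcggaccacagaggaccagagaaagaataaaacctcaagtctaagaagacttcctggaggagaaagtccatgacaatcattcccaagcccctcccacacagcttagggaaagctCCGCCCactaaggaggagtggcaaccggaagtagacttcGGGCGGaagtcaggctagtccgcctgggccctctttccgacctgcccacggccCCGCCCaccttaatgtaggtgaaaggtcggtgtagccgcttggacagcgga
Hadha: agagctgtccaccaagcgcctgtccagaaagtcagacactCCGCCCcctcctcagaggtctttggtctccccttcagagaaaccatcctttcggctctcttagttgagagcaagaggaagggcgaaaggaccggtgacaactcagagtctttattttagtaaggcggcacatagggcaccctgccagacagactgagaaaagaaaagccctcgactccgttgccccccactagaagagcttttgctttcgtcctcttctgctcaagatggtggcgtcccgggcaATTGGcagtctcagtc

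Hadha and Hadhb, which encode the α and β subunits of the trifunctional protein, start head to head. The starts used for their windows have 300 bases between them, so that the windows share 200 bases. The annotated genes lie closer, with Hadhb reaching to 31907557 and Hadha beginning at 31907801. AGGTCA was found in 2 of the 9 member windows, against 16.2% of 33469 rat windows. These were Acadvl, with matches at -169 to -164 and at -17 to -12, and Hadhb, with one at 43 to 48 on the opposite strand. The Hadhb match is also the only one of the longer form AAGGTCA, which contains AGGTCA and occurs in 4.61% of all windows. The direct repeat AGGTCANAGGTCA occurs in 0.0538% of all windows and in 0 of the 9. GGGCGG was found in 7 of 9, against 33.1%, and CCAAT in 2 of 9, Acads and Hadha, against 37.5%. The only GC box of Hadha, at -210 to -205, and the Hadhb box at -96 to -91 are the same bases. The 7 windows with GGGCGG held 54.3% to 66.7% G and C, against a median of 51.7% over all windows. The Acadm window held 3 GC boxes, all after the start, and no other searched motif. These are matches of letters in a short window, and no binding was measured. A site further upstream, or one that differs from the searched letters, would not be found, for Acadm as for the others.

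Signals are MAS5 intensities as deposited, 1 value per probe set and array, and log2 was taken after setting signals under 1 to 1. The 27 control probe sets for Bacillus transcripts read at most 20.7, which serves as a scale for background. The siRNA target Nr2f2, read by its brightest probe set 1389554_at, had signals of 47.0, 27.7 and 23.8 in COUP-TFII depleted cells and of 182, 235 and 179 in control cells. All 15 of the 18 β-cell markers with a probe set lay above the background scale on all 6 arrays, among them the insulin gene Ins1 (9490 to 15840). Of 23 markers of other cell types, 19 had mean signals at or below the scale in both groups, and 3, Gcg, Kdr and Cd68, lay above it on all arrays. The summed signal of those 23 markers ran from 1051 to 8346 in COUP-TFII depleted cells and from 682 to 6602 in control cells, and from 212 to 290.2 and from 202 to 289 without Gcg, the glucagon gene. In RNA of whole cultures, fewer cells of a type and less RNA per cell cannot be told apart.

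Each of the 10 genes had a probe set above the background scale on every array, and the brightest of each gene is used where 1 value per gene is given. Acadm, for medium-chain acyl-CoA dehydrogenase, was the member that set the siRNA groups apart. Acadm 1367702_at read 283, 275 and 214 in COUP-TFII depleted cells (replicates 1, 2 and 3) and 459, 396 and 336 in control cells. Every depleted array lay below every control array, and the signal was lower in each same-numbered pair. The means were 257 ± 37.5 and 397 ± 61.8 (SD, n = 3 each), 35.2% lower, with a log2 fold change of -0.62 (standard error 0.18). The log2 differences within pairs were -0.70, -0.53 and -0.65. With 1 array left out the fold change ran from -0.74 to -0.50.

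**Figure D1:**
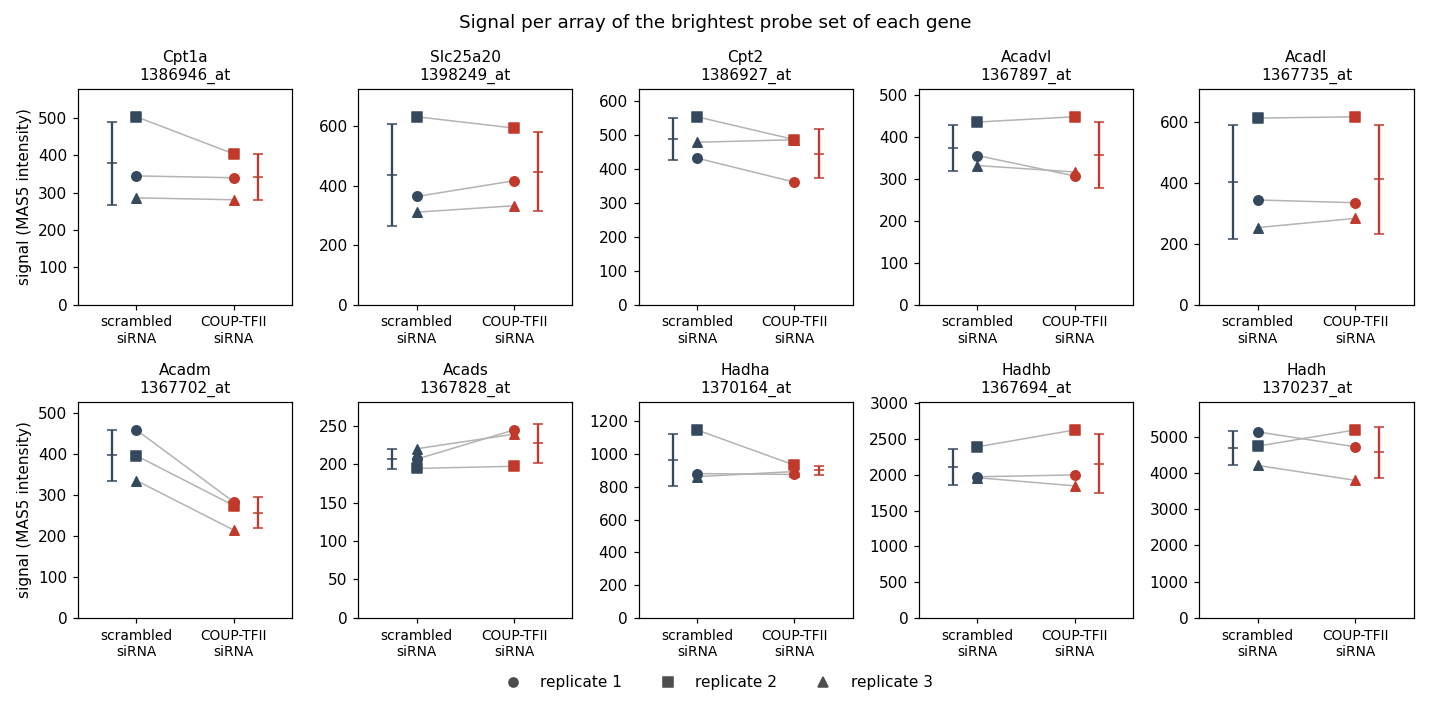
Signal per array (MAS5 intensity, linear axes from 0, scaled for each gene) of the brightest probe set of each of the 10 genes after scrambled or COUP-TFII siRNA. Each line connects a same-numbered pair, and bars are mean ± SD (n = 3). For Acadm all 3 lines slope down and the groups do not overlap, and for Acadl and Slc25a20 both replicate 2 arrays lie above all others.

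The other 3 acyl-CoA dehydrogenases did not show that pattern. Acadvl, which acts on very long chains, read 306, 448 and 316 after COUP-TFII siRNA and 355, 435 and 331 after scrambled siRNA, with overlapping groups and a log2 fold change of -0.08 (standard error 0.19). Acadl, for long chains, read 335, 618 and 284 against 344, 614 and 254, a log2 fold change of 0.04 (standard error 0.37). The arrays of each pair were alike, and the spread lay between the replicate numbers. Omitting COUP-TFII siRNA replicate 2 gave an Acadl fold change of -0.29, and omitting scrambled siRNA replicate 2 gave 0.40. Acads, for short chains, read 245, 197 and 239 against 207, 195 and 220. It was higher in COUP-TFII depleted cells in all 3 pairs, by little (log2 fold change 0.13, standard error 0.16), and its groups overlapped.

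Of the carnitine shuttle, Cpt1a is the liver-type palmitoyltransferase and the malonyl-CoA-sensitive step. Its brighter probe set 1386946_at read 340, 404 and 281 in COUP-TFII depleted cells and 345, 503 and 286 in control cells. The log2 fold change was -0.12 (standard error 0.23), it was lower in 3 of 3 pairs, and most of the difference came from the replicate 2 pair (-0.32, against -0.021 and -0.026 in the others). Without scrambled siRNA replicate 2 the fold change was 0.10. The dimmer Cpt1a 1367836_at read 85.9, 94.5 and 84.3 against 109, 121 and 82.9, and its groups overlapped (log2 fold change -0.23, standard error 0.22). Slc25a20, the carnitine-acylcarnitine translocase, read 417, 594 and 333 against 364, 632 and 311. Its log2 fold change of 0.07 (standard error 0.29) became -0.16 without COUP-TFII siRNA replicate 2 and 0.37 without scrambled siRNA replicate 2. Cpt2 read 361, 486 and 486 against 432, 554 and 479, a log2 fold change of -0.14 (standard error 0.17). In none of the carnitine shuttle genes did the groups separate.

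Hadha 1370164_at, for the subunit with hydratase and long-chain 3-hydroxyacyl-CoA dehydrogenase activity, read 876, 933 and 894 in COUP-TFII depleted cells and 881, 1148 and 863 in control cells. The log2 fold change was -0.09 (standard error 0.15), and 0.02 without both replicate 2 arrays. Hadhb, for the thiolase subunit, read 1999, 2628 and 1846 against 1973, 2392 and 1960. Its log2 fold change of 0.02 (standard error 0.17) was -0.03 after quantile normalization and also without both replicate 2 arrays. Neither gene, though they start head to head, had siRNA groups that separated. Hadh 1370237_at read 4721, 5186 and 3796 against 5131, 4740 and 4206, and its groups overlapped (log2 fold change -0.05, standard error 0.17). The other Hadh probe set, 1389922_at, read 66.5, 44.0 and 71.8 against 57.9, 38.4 and 47.9, higher in all 3 pairs (log2 fold change 0.33, standard error 0.32). The 2 Hadh probe sets thus had fold changes of opposite sign, each within about 1 standard error of 0.

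The remaining pair of Hadha probe sets was dim. Hadha 1394857_at read 24.0, 13.2 and 39.8 in COUP-TFII depleted cells and 49.0, 21.1 and 44.3 in control cells, and its groups overlapped (log2 fold change -0.62, standard error 0.54). Hadha 1394763_at read 7.18, 0.845 and 7.51 against 18.1, 8.13 and 22.04. Its groups did not overlap, but both means, 5.18 and 16.1, lay under the background scale, so no fold is given. The bright probe set of the gene shows no such separation.

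The count of members is set beside the same count over all probe sets, and nothing is read from it, because the same comparison chose the pathway. By limma, unpaired and two-sided, 0 of the 14 member probe sets passed an adjusted p of 0.05, against 0.00% of all. At an unadjusted p up to 0.05, 1 member was lower (Acadm; 1.34% of all probe sets) and 0 were higher (0.973%). With the replicate number as a block 2 were lower, Acadm and the dim Hadha 1394763_at (3.51% of all), and 0 were higher (2.72%). Groups that did not overlap were found for 2 members in the lower direction, the same pair of probe sets (3.49%), and for 0 in the higher one (3.25%). The signal was lower in 3 of 3 pairs for 4 members (14.3%), which were Acadm, Cpt1a 1386946_at and both dim Hadha probe sets. Over the 10 genes 6 were lower and 4 higher by mean, with a median log2 fold change of -0.063, and over all probe sets 50.4% were lower, with a median of -0.0031. The members' median depended on single arrays: leaving out 1 array moved it to between -0.18 (COUP-TFII siRNA replicate 2 omitted) and 0.065 (scrambled siRNA replicate 2 omitted), and it was above 0 in 3 of the 6 cases.

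**Figure D2:**
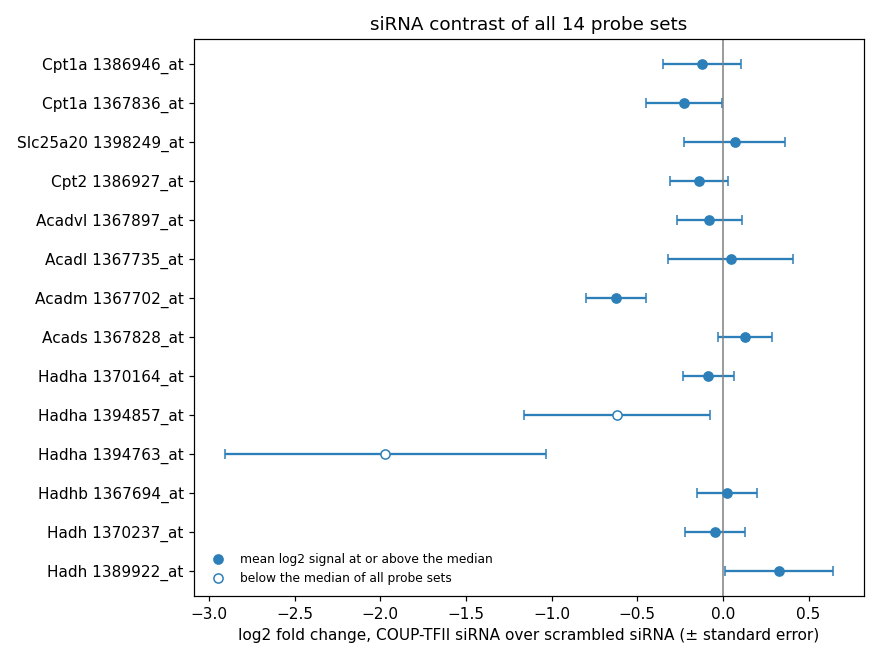
Difference in log2 signal, depleted minus control cells (horizontal axis, ± standard error from limma), for the 14 probe sets of the 10 genes. Open points, both of Hadha, are dimmer on average than the median probe set, and filled points are not. Among filled points Acadm lies lowest, at -0.62, and the dim Hadha 1394763_at rests on signals under the background scale.

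The larger part of the variation of several members lay between replicate numbers and was shared by both siRNA groups. Arrays 2 of both groups read higher than all 4 other arrays for 7 of the 14 member probe sets, against 11.1% of all probe sets, and lower than all others for 3, against 18.1%. The 7 were the bright probe sets of Cpt1a, Slc25a20, Cpt2, Acadvl, Acadl, Hadha and Hadhb. The 3 were Acads, the dim Hadha 1394857_at and the dimmer Hadh 1389922_at. Among 12191 probe sets with 1 symbol at or above the median signal, where all 10 brightest member probe sets lie, 21.5% had both replicate 2 arrays on top. Both replicate 2 arrays were also on top for 33 of 93 genes around the members, given by list below. Of the brightest member probe sets, those of Acadm and Hadh lay on neither side.

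This difference was tested with the siRNA group as a term in the fit (limma, F test of the replicate numbers), which in a balanced design does not use the siRNA contrast. An adjusted p under 0.05 was reached by 4 of 14 member probe sets, against 11.0% of all, and an unadjusted p up to 0.05 by 8, against 25.8%. Among the brighter probe sets with 1 symbol these shares were 20.2% and 41.5%, beside 4 and 7 of the 10 brightest member probe sets. Acadl differed most, 2.04-fold higher on the replicate 2 arrays than on the others by mean log2 signal, with an adjusted p of 0.000432. Slc25a20 was 1.73-fold higher (adjusted p = 0.00213), Cpt1a 1386946_at 1.45-fold (adjusted p = 0.0174) and Acadvl 1.35-fold (adjusted p = 0.0496), all by limma. Without the intensity trend all 4 calls were lost, with adjusted p of 0.210 for Acadl, 0.264 for Slc25a20, 0.349 for Cpt1a and 0.418 for Acadvl, and 0 of all probe sets passed (4850 at an unadjusted p up to 0.05). Acadvl also missed the threshold with quantile normalization (adjusted p = 0.0582) and on log2(signal + 16) (adjusted p = 0.0554), by limma. With 1 array left out, a check chosen after the result was seen, the adjusted p of Acadl stayed at or under 0.0219. Slc25a20 passed except without scrambled siRNA replicate 2 (adjusted p = 0.0632), Cpt1a passed only without either replicate 1 array, and Acadvl passed in none of the 6. For Acadm the replicate 2 arrays were 1.06-fold higher (adjusted p = 0.0794) and for Acads 0.863-fold (adjusted p = 0.430).

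**Figure D3:**
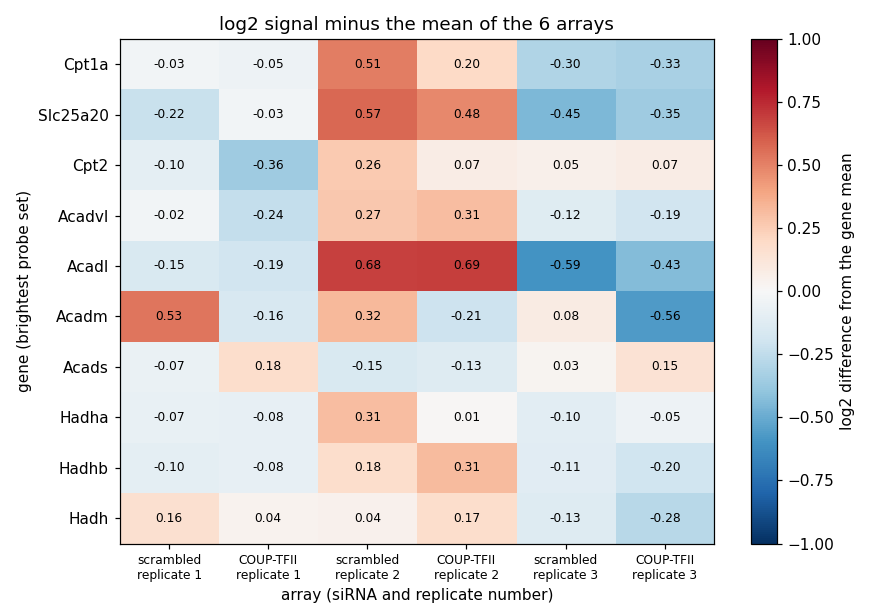
log2 signal of each gene (rows, brightest probe set) on each array (columns, ordered by replicate number) minus the mean of its 6 arrays. Red is above and blue below that mean. Acadl stands at 0.68 and 0.69 on the replicate 2 arrays and at -0.59 and -0.43 on the replicate 3 arrays, while Acadm is higher on the scrambled array of each number.

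Other features of the arrays are set beside these values, and not all of them set the replicate 2 arrays apart. On the replicate 2 arrays 42.2% and 43.7% of probe sets lay at or below the background scale, against 36.2% to 39.1% on the others, and the median probe set differed by -0.087 on the log2 scale. Quantile normalization moved that median to 0.080, and median centring to 0.23. For the brighter probe sets with 1 symbol the median was 0.059 as deposited, 0.11 after quantile normalization and 0.37 after median centring. In the same order and on the same log2 scale Acadl stood at 1.03, 1.00 and 1.34, and Slc25a20 at 0.79, 0.77 and 1.10. Acads turned from -0.21 to 0.10 with median centring. After quantile normalization 5 of the 10 genes had both replicate 2 arrays on top, against 24.95% of those brighter probe sets, and after median centring 8 of 10, against 51.3%. The ratio of the 3′ to the 5′ control probe set was 0.974 to 1.09 for GAPDH on all arrays, and for β-actin 3.39 and 2.98 on the replicate 2 arrays, against 2.64 to 3.003 on the others. Gcg, the marker of another islet cell type that was bright here, read 8056, 4789 and 817 in COUP-TFII depleted cells and 6313, 3397 and 394 in control cells, with replicate 3 lowest in both groups. It was also higher in COUP-TFII depleted cells in all 3 same-numbered pairs (log2 fold change 0.63, standard error 1.07), with an unadjusted p of 0.00106 and an adjusted p of 0.566 in the blocked limma fit. The part of these features in the members' differences was not tested, and what the numbers share beyond their label is not stated.

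Across the 6 arrays, Pearson's r of log2 signal among the 7 genes with both replicate 2 arrays on top ran from 0.37 to 0.98 over 21 pairs, and the pattern itself puts those arrays high in each of them. Acadl and Slc25a20 had the highest r, 0.98. Cpt2 had the lowest values, 0.37 with Slc25a20, 0.40 with Cpt1a and 0.43 with Acadl and with Hadhb. Acads ran against all other members, with r from -0.93 to -0.60. Acadm had r between -0.60 and 0.59 with the other members, and 0.14 with Hadhb and 0.30 with Hadha. These values hold the siRNA difference of Acadm. Taken within the siRNA groups, its r ran from -0.49 with Cpt2 to 0.92 with Hadh. It was 0.38 with Hadhb and 0.086 with Hadha. Hadha and Hadhb, the subunits of 1 enzyme, had an r of 0.61 with each other across all 6 arrays. These values describe 6 arrays of 2 groups and are given without a test.

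The 5 genes whose brightest probe set followed Acadm most closely over the 6 arrays, of 9065 genes at or above the median signal, were Mapk14 (r = 0.985), Aida (0.983), Bet1l (0.975), Dlg4 (0.971) and Tent4b (0.970). Mapk14, for the kinase p38α, read 532, 492 and 428 in COUP-TFII depleted cells and 659, 614 and 542 in control cells, a log2 fold change of -0.32 (standard error 0.15). Aida read 248, 238 and 192 against 366, 348 and 316. Because r was taken over both siRNA groups, genes most like Acadm share its siRNA difference through this choice. Their fold changes are therefore no separate result. No member of the pathway was among the 5. With 9065 genes compared over only 6 arrays, values of r this high can arise between unrelated genes, and no link to Acadm was tested.

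Around the members, 101 genes of 7 lists stood for the rest of the pathway and its surroundings, and 93 had a named probe set. In the siRNA comparison 43 were lower and 50 higher by mean, 1 was lower and 1 higher at an unadjusted p up to 0.05 by limma, and with the replicate block 4 and 3. The lower one was Acaca, for acetyl-CoA carboxylase, which makes the inhibitor of Cpt1a. Acaca read 677, 604 and 668 in COUP-TFII depleted cells and 887, 787 and 847 in control cells, with separate groups and a log2 fold change of -0.37 (standard error 0.13). The higher one was Acox2, a peroxisomal oxidase, whose signals of 1.82 to 15.0 all lay under the background scale. With the block the 4 lower were Acaca, Acsl5, Acsl1 and Hnf4a, and the 3 higher were Acox2, Decr1 and Etfdh. Over all probe sets the block called 3.51% lower and 2.72% higher. The adjusted p of these 7 genes ran from 0.597 to 0.797 in the blocked limma fit.

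Among the other acyl-CoA dehydrogenases and the electron transfer flavoprotein, 9 of 10 genes were higher in COUP-TFII depleted cells by mean, with a median log2 fold change of 0.17 and 0 called without the block. That median was 0.046 when scrambled siRNA replicate 1 was omitted, and was 0.30 when replicate 2 of the same group was. Etfdh, the oxidoreductase that hands the electrons to ubiquinone, stood at 0.31 (standard error 0.30), Etfa 0.17 (standard error 0.16) and Gcdh, for glutaryl-CoA dehydrogenase, 0.16 (standard error 0.19). The 12 auxiliary and thiolase genes had a median of 0.079, with Decr1, the dienoyl-CoA reductase, at 0.36 (standard error 0.27) and Echs1, the short-chain hydratase, at 0.27 (standard error 0.21). Of the 16 other genes of the carnitine shuttle and acyl-CoA activation 8 were lower and 8 higher. The acyl-CoA synthetases Acsl5 and Acsl1 stood at -0.30 and -0.26 (standard error 0.17 each), both lower in 3 of 3 pairs. Fabp5, a fatty acid binding protein gene, stood at 0.23 (standard error 0.18) and was higher in 3 of 3 pairs. The medians were -0.043 for 11 peroxisomal genes, -0.030 for 4 of ketone body metabolism, -0.027 for 25 regulators and 0.021 for 15 of the tricarboxylic acid cycle. Of the regulators, Hnf4a, for a nuclear receptor of the same half-site, read 255, 215 and 319 against 331, 314 and 339 (log2 fold change -0.34, standard error 0.17), and Esrra, for estrogen-related receptor α, had -0.26 (standard error 0.23). Ppara had signals as low as 1.35.

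**Figure D4:**
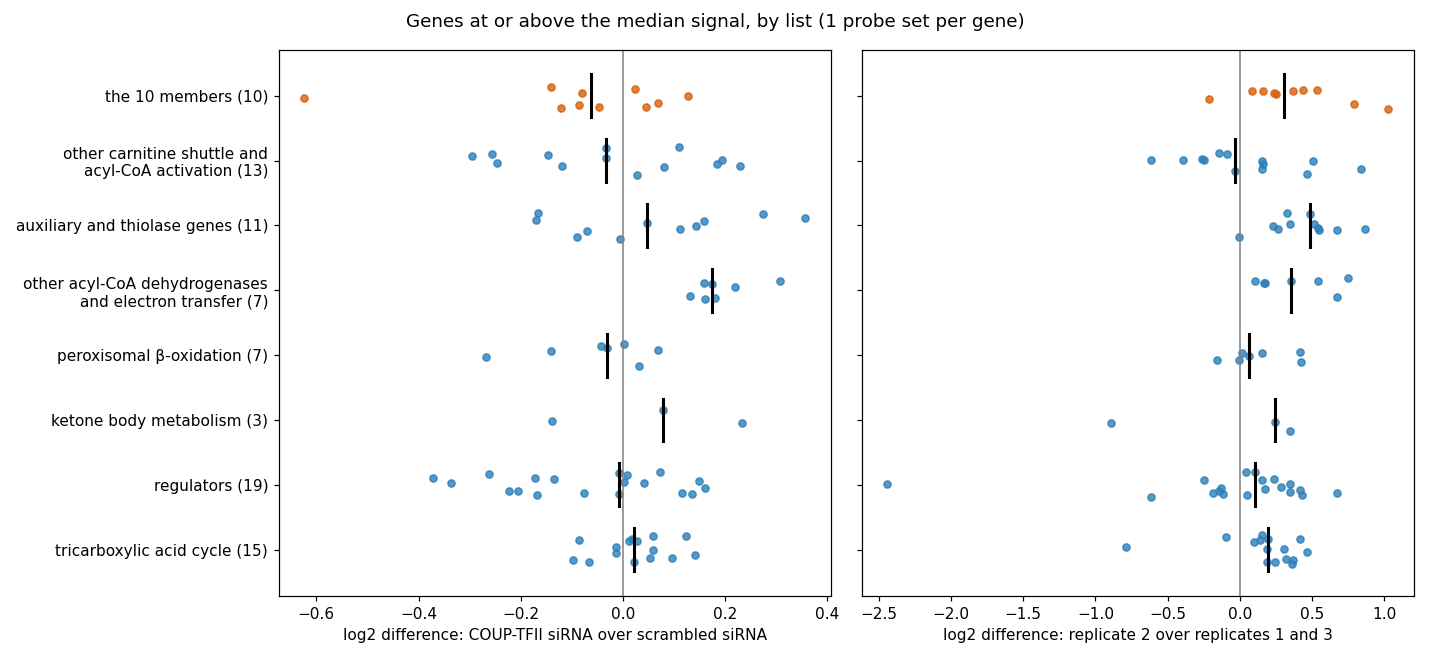
log2 difference of each gene at or above the median signal (points, brightest probe set, spread vertically so that points can be seen) by list, with the list median as a black bar and the number of genes in brackets. The left panel is COUP-TFII over scrambled siRNA, where Acadm lies apart at -0.62. The right panel is replicate 2 over replicates 1 and 3, where the 10 members have a median of 0.31 and the auxiliary and thiolase genes one of 0.48.

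Between replicate numbers 16 of the 93 genes passed the F test at an adjusted p under 0.05 by limma, against 11.0% of all probe sets and 20.2% of the brighter ones with 1 symbol. They were 4 of 12 auxiliary and thiolase genes, 4 of 10 of the other acyl-CoA dehydrogenases and electron transfer flavoprotein, 2 of 16 of carnitine shuttle and activation, 1 of 11 peroxisomal genes, 0 of 4 of ketone body metabolism, 2 of 25 regulators and 3 of 15 of the tricarboxylic acid cycle. Without the intensity trend 0 of all probe sets passed, so these calls were lost too. Both replicate 2 arrays lay on top for 33 of the 93 genes, beside 7 of the 10 members. By list, in the same order, they did so for 8 of 12, 3 of 10, 3 of 16, 2 of 11, 2 of 4, 5 of 25 and 10 of 15 genes. The auxiliary and thiolase and the tricarboxylic acid cycle genes thus had shares of 66.7% each, near the 70% of the members. Acaa2, the medium-chain thiolase, read 606, 972 and 450 in COUP-TFII depleted cells and 628, 996 and 491 in control cells (adjusted p = 0.00054), the order of replicates seen for Acadl. Fabp3, a cytosolic fatty acid binding protein, read 797, 805 and 292 against 778, 817 and 235 (adjusted p = 7.47e-05), with replicate 3 low and the other numbers alike. Decr1 was 1.59-fold higher on the replicate 2 arrays (adjusted p = 0.0106), Etfdh 1.59-fold (adjusted p = 0.00379) and Acsl4, another acyl-CoA synthetase, 0.653-fold (adjusted p = 0.00253), all by limma. Acaa2, Fabp3 and Acsl4 are named after their values were seen.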

How the data were processed

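RNA of 3 cultures per siRNA was hybridised to Affymetrix rat arrays. The authors processed the scans with MAS5 (version not given in the sources used here) and deposited linear intensities, 1 for each probe set on each array. Their methods describe background subtraction and normalization to reference probes. Signals under 1, from 1.85% to 5.49% of an array, were set to 1 before log2, and 57 control probe sets were left out. No scaling was added, and detection calls were not used here. COUP-TFII siRNA and scrambled siRNA arrays were compared over 31042 probe sets with limma 3.58.1 in R 4.3.3 (lmFit, eBayes with intensity trend, two-sided, unpaired, Benjamini-Hochberg), and replicate numbers by an F test in a fit with the group as a term. The number of arrays limits the precision: an exact permutation test of 3 against 3 cannot go below a two-sided p of 0.1. The labels call the arrays biological replicates, and whether same-numbered arrays share an electroporation is not stated.

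Symbols came from the platform annotation. A check through Entrez identifiers against a RefSeq table of GRCr8 changed 0 of them. A single symbol stood against 20826 probe sets, more than one against 436, and 9780 had no symbol. Of the listed genes, 8 of the pathway lists and 6 of the marker lists had no named probe set. Deviations from the group means correlated at 0.111, 0.231 and 0.163 between same-numbered arrays and from -0.146 to -0.0104 between others, so the numbers were taken to pair the arrays. Such deviations cancel within a group, so the negative values follow in part from the positive ones. The pairing was read from the same signals that the block and the F test use. Standard errors given with fold changes are nevertheless those of the unpaired fit, which hold the spread between replicate numbers. For Acadl the standard error was 0.37 unpaired and 0.090 with the replicate number as a block.

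The members, lists and tests were chosen with earlier results of these data known. Named were all member probe sets, Nr2f2, up to 3 genes per pathway list by lowest p at or above the median signal, the 5 genes most like Acadm, markers, and genes stated as chosen after their values were seen. Each fit was first tested on simulated data in which 200 of 31042 probe sets, all at or above the median signal, held known changes. By adjusted p the siRNA contrast recovered 18% of simulated 2-fold changes, both unpaired and with the replicate block. The F test of replicate numbers recovered 0% of them. By unadjusted p these shares were 82% unpaired, 94% with the block and 90% for the F test. Of simulated 4-fold changes 58%, 63% and 15% were recovered by adjusted p, in the same order. In the measured data 3426 probe sets passed the F test, many more than were changed in the simulation. Its simulated recovery by adjusted p therefore need not hold there. A missing adjusted call therefore does not show that a gene was unchanged. Results were recomputed with the methods' t-test, with limma without trend, after quantile normalization or median centring, on log2(signal + 16), under 2 filters against dim probe sets, with the replicate number as a block, leaving out each array, and taking for a gene the median of its probe sets. Plots used matplotlib 3.10.9 (Python 3.11.15).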

Additional observations from a re-analysis of the deposited data

How the results depend on the processing

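The settings without both replicate 2 arrays and, for replicate numbers, with 1 array left out were chosen after the data were seen. Of 207 log2 fold changes of member probe sets under the alternatives, 187 kept their sign, and Acadm was lower in all of them. The t-test, the fit without trend, the block and both filters leave a fold change as it was, so those signs could not turn. Because the Acadm groups did not overlap, leaving out arrays could not turn its sign either. With the replicate block the member probe sets lower at an unadjusted p up to 0.05 numbered 2 in place of 1, the pathway genes 4 lower and 3 higher in place of 1 and 1, and all probe sets 1089 lower and 844 higher in place of 415 and 302. The block changed no adjusted call of a member. Lower members also numbered 2 with quantile normalization, median centring and log2(signal + 16), where 439, 401 and 434 of all 31042 probe sets were lower. With 1 array left out lower members numbered 1 to 2, against 311 to 647 of all. The count of 2 came without COUP-TFII siRNA replicate 3, where 647 of all were lower. Genes lower by mean numbered 3 to 9 with 1 array left out, in place of 6, 3 without scrambled siRNA replicate 2. The members' median was -0.085 with quantile normalization, -0.029 without both replicate 2 arrays and -0.029 taking the median of a gene's probe sets, and ran from -0.18 to 0.065 with 1 array left out.

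Lower pathway genes numbered 0 without the trend (540 of all probe sets), 0 with median centring (401 of all) and 2 without both replicate 2 arrays (526 of all). With 1 array left out they numbered 0 to 4. They were 0 without COUP-TFII siRNA replicate 2 (424 of all) and 4 without COUP-TFII siRNA replicate 1 (409 of all). Higher pathway genes numbered 0 under both filters on dim probe sets, which drop Acox2, and 0 to 4 with 1 array left out. They were 4 without scrambled siRNA replicate 2, where 354 of all probe sets were higher. The peroxisomal median was -0.088 with quantile normalization, -0.032 under both filters and -0.062 without both replicate 2 arrays, and that of the regulators -0.12 without those arrays. Leaving out 1 array gave medians of -0.048 to 0.19 for auxiliary and thiolase genes, -0.15 to 0.028 for peroxisomal genes, -0.11 to 0.0025 for regulators, -0.047 to 0.083 for the tricarboxylic acid cycle, 0.046 to 0.30 for the other acyl-CoA dehydrogenases and electron transfer flavoprotein, -0.10 to 0.091 for carnitine shuttle and activation genes and -0.24 to 0.052 for ketone body metabolism. At an adjusted p under 0.05, 4 member probe sets and 3426 of all 31042 differed between replicate numbers in the main fit. Without the trend 0 members and 0 of all did, and with median centring 9 members and 6765 of all. With 1 array left out 1 to 3 members and 1133 to 2230 of all did, both lowest without scrambled siRNA replicate 2. At an unadjusted p up to 0.05, 4 members and 4850 of all differed without the trend, in place of 8 and 7998. The cause was not tested. Signals near the background scale, as for both dim Hadha probe sets, limit what their differences can show.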
